A study of Mus musculus with 192 samples.

Results

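Mitotic-high erythroid BFU-E cells are the 18 cells with the highest, and mitotic-low cells the 18 cells with the lowest, mean level of 5 mitotic genes among 56 erythroid cells of a plate of burst-forming unit-erythroid (BFU-E) cells from mouse fetal liver. The 36 cells stand among 192 cells of the series, of which 96 lie on the BFU-E plate and the others on a plate of colony-forming unit-erythroid (CFU-E) cells. Both groups are untreated C57/Bl6J cells of embryonic day 14.5, depleted of lineage-marked cells, stained for CD117, CD71 and CD24, sorted singly into wells and read by SmartSeq2, a whole-transcript method that amplifies without molecular identifiers. No animal, litter or pool is named, all cells of a type came from 1 plate and 1 sequencing lane, and the groups were picked from the measured levels, so the 36 cells are 1 sample and the comparison is a description with no test.

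A BFU-E cell was taken as erythroid when it had at least 100000 counts, at least 2000 genes and a summed level of Gata1, Klf1, Epor and Mfsd2b of at least 100 CPM (counts of a gene per 1000000 counts of the cell). The count and gene minimum left 92 cells and the erythroid gate 56. The score was the mean log2(CPM + 1) of Plk1, Aurka, Ccnb1, Cdc20 and Cenpe in each cell. The 18 mitotic-high cells scored 7.72 to 9.49 (median 8.56), the 20 intermediate cells 4.55 to 7.69 (median 6.73), and the 18 mitotic-low cells 0 to 4.53 (median 3.44). The cells on either side of each limit lay close together, at 7.72 and 7.69 for the 18th and 19th rank and at 4.55 and 4.53 for the 38th and 39th, so the groups are the ends of a range and not separated classes.

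**Figure D1:**
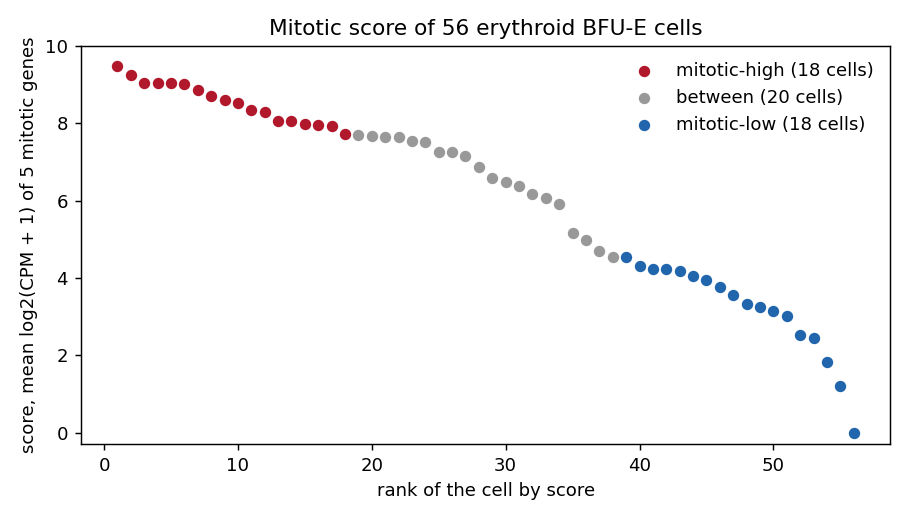
Score of each of the 56 erythroid BFU-E cells (mean log2(CPM + 1) of Plk1, Aurka, Ccnb1, Cdc20 and Cenpe, vertical axis) against its rank (horizontal axis), with 1 point per cell and colours for the 18 mitotic-high, the 20 intermediate and the 18 mitotic-low cells. The score declines without a gap at 7.72 to 7.69 and at 4.55 to 4.53, where the groups were divided.

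In mitosis the kinase Cdk1 with cyclin B drives chromosome condensation and spindle assembly, Plk1 and the Aurora kinases direct centrosomes, kinetochores and cytokinesis, and the anaphase-promoting complex ends the phase by marking cyclin B and securin for destruction. Most transcripts of this machinery accumulate in G2 and M phase, while those for replication origins and for nucleotide supply accumulate around the G1/S transition. BFU-E cells are early erythroid progenitors that can self-renew, and their CFU-E descendants divide rapidly before terminal maturation. Mitotic promoters often hold the cell cycle genes homology region (CHR), with the core TTTGAA bound by MuvB complexes, and CCAAT boxes bound by NF-Y.

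Promoter windows of 300 bases (250 before to 50 after the RefSeq gene start, GRCm38.p6) are printed for 2 genes of the score, for 2 of the genes furthest apart between the groups and for Cdt1, a replication gene with the opposite difference, so that their motif content can be compared. They are Ccnb1 (chr13:100786437-100786736, minus strand), Cdc20 (chr4:118437294-118437593, minus strand), Ube2c (chr2:164769679-164769978, plus strand), Prc1 (chr7:80294201-80294500, plus strand) and Cdt1 (chr8:122567765-122568064, plus strand). Each is written 5′ to 3′ on the gene's strand, and capitals mark TTTGAA and CCAAT or their reverse complements.
Ccnb1: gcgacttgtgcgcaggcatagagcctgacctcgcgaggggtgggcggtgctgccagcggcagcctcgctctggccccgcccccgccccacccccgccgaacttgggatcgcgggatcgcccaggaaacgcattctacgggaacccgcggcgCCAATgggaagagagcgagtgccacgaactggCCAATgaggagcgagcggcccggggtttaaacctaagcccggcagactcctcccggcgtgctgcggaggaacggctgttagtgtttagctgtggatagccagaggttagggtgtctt
Cdc20: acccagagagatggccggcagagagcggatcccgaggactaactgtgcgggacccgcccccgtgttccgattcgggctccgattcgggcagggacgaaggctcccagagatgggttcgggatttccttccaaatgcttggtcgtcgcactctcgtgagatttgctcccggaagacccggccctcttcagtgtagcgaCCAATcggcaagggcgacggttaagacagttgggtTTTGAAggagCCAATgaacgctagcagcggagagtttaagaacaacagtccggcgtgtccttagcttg
Ube2c: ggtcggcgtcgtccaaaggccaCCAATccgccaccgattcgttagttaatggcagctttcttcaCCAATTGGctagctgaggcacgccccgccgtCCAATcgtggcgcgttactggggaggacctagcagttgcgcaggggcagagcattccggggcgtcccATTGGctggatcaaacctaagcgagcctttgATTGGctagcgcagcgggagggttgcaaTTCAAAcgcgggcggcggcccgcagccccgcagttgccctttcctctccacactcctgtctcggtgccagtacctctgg
Prc1: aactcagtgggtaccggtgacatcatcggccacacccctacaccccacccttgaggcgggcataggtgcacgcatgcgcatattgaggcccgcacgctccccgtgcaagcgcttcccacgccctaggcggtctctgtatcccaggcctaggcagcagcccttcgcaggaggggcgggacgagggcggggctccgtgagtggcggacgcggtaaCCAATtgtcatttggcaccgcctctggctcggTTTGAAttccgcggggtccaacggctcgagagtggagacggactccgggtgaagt
Cdt1: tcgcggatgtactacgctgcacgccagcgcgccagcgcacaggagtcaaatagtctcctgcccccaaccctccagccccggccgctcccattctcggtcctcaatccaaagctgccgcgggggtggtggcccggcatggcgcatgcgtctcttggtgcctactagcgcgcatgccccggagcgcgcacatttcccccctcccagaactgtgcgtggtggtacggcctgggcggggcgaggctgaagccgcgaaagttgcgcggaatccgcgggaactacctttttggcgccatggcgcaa
Cdc20 holds TTTGAA with its first base 18 bases before the start and Prc1 5 bases before it, while in Ube2c the motif lies on the other strand at 29 bases before the start. Ccnb1 holds CCAAT 99 and 67 bases before the start and no TTTGAA in this window, Ube2c holds 6 CCAAT matches, of which a pair overlap on opposite strands, and the Cdt1 window holds neither motif. The start used for these windows lies 0 (Cdt1) to 84 (Ccnb1) bases inside the GENCODE gene start.

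The 5 score genes chose the cells, so their levels describe the groups and support nothing. Plk1, the polo-like kinase, ran at 179.6, 354 and 563 CPM in the mitotic-high cells (lowest, median and highest) and at 0, 1.23 and 89 CPM in the mitotic-low cells. Ccnb1, cyclin B1, ran at 357, 750.5 and 2020 CPM in mitotic-high and at 0, 76.2 and 281 CPM in mitotic-low cells. For both genes every mitotic-high cell lay above every mitotic-low cell. Cenpe, a kinetochore kinesin, overlapped most of the 5, with 3 of 18 mitotic-high cells above all mitotic-low cells and a mitotic-low maximum of 419 CPM. Summed over each group after thinning every cell to 100000 counts, the 5 genes stood 5.17-fold (Cenpe) to 33.5-fold (Plk1) higher in mitotic-high cells.

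The groups also differed in measures that the score did not use. Mitotic-high cells had 608347 to 3864040 counts and mitotic-low cells 114288 to 1832551, and after thinning a median of 6365 genes with a count in mitotic-high (5620 to 6893) against 5640 in mitotic-low cells (4316 to 6196). The summed level of the 4 erythroid gate genes had a median of 1611 CPM in mitotic-high (594 to 2163) against 1085 CPM in mitotic-low cells (100.2 to 2432). A gate sum under 200 CPM occurred in 0 mitotic-high and 3 mitotic-low cells, and the highest cell left out by the gate had 42.7 CPM. A further mitotic-low cell had 31.2% of its counts in 13 predicted genes such as Gm10800, against at most 1.56% in a mitotic-high cell. Across the 56 cells the score had a Spearman correlation of 0.64 with the number of genes detected and of 0.38 with total counts, values that share the same libraries. The part of these differences in the results was not tested, and values without these 4 mitotic-low cells are given where a call depends on them.

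Lists of markers of other cell types summed to 1.11 to 543 CPM in mitotic-high and 1.67 to 432 CPM in mitotic-low cells. Single cells held more. The 16 granulocyte and monocyte markers summed to 87.8 CPM in mitotic-high against 426 CPM in mitotic-low cells, with 7 of the 16 at 0 in both, and cell sums of 3.61 to 610.4 CPM in mitotic-high against 1.08 to 5811 CPM in mitotic-low cells. Mpo, myeloperoxidase, made most of the highest sum: it stood at 52.8 CPM in mitotic-high against 302 CPM in mitotic-low cells, but at 5457 CPM in 1 mitotic-low cell, and its log2 fold was −2.50 with that cell and 2.03 without the 4 cells. That mitotic-low cell passed the gate with 151 CPM of erythroid gate genes, far under its Mpo level. The 10 megakaryocyte markers summed to 543 CPM in mitotic-high against 432 CPM in mitotic-low cells, with 4 at 0 in both, and the 9 hepatocyte markers to 167 CPM in mitotic-high against 324 CPM in mitotic-low cells, with none at 0 in both. Megakaryocyte sums of single cells reached 2374 CPM in mitotic-high and 1402 CPM in mitotic-low cells. Hepatocyte sums reached 755 CPM in mitotic-high and 3401 CPM in mitotic-low cells. Alb, albumin, was 2.67-fold lower in mitotic-high cells, and stood at a log2 fold of −0.32 without the 4 mitotic-low cells. Mast cell, lymphoid, macrophage, endothelial-stromal and mature erythroblast lists summed to 1.11 to 70 CPM in mitotic-high and 1.67 to 138 CPM in mitotic-low cells. Of their members 5 of 8, 8 of 10, 6 of 8, 2 of 7 and 1 of 10 were at 0 in both.

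A gene counted as measured when its mean over both groups was at least 5 CPM and at least 9 of the 18 thinned cells of its higher group held a count. The calls are therefore a description, since a gene can pass the minimum through the group where it is higher. Of 6213 measured genes, 649 (10.4%) reached 2-fold above and 310 (4.99%) 2-fold below the mitotic-low level in mitotic-high cells. The median log2 fold over all measured genes was 0.14. With another random thinning 652 were higher and 311 lower, and 457 and 207 of these were among the first calls, so single calls near 2-fold turn on which reads were drawn.

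Transcripts of the mitotic machinery beyond the 5 score genes were higher in mitotic-high cells in most of the lists that cover it. Of 133 measured members of 6 mitotic lists (140 have a row, and the 5 score genes are not among them), 83 reached 2-fold above and 2 reached 2-fold below the mitotic-low level in mitotic-high cells. Their median log2 fold was 1.35. The 26 alternative settings gave 64 to 92 higher members and 0 to 3 lower ones. The lists were chosen with results of these cells known, and their genes are known to be expressed in the same phase as those of the score. Summed over the lists, mitotic-high cells held 24762 to 38948 CPM and mitotic-low cells 8848 to 25664 CPM, and 17 of 18 mitotic-high cells lay above all mitotic-low cells.

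Among mitotic kinases, cyclins and their regulators, 15 of 23 measured members were higher and 2 lower. The share of higher members, 65.2%, stands beside 10.4% of all measured genes. The share of lower members, 8.70%, lies near the 4.99% of all measured genes. Aurkb, the kinase of the chromosomal passenger complex, ran at 144, 468 and 778 CPM in mitotic-high cells (lowest, median, highest) and at 0, 2.06 and 404 CPM in mitotic-low cells. Its summed level was 7.73-fold higher in mitotic-high cells (6.27 to 9.62, a 95% interval that covers counting error only, here and below), at 429 CPM in mitotic-high, 245 CPM in intermediate and 55.6 CPM in mitotic-low cells. The groups overlapped in that 11 of 18 mitotic-high cells lay above all mitotic-low cells. Cdc25c, the phosphatase that activates Cdk1, was 17.9-fold higher (9.79 to 36.5) and Mastl, the Greatwall kinase, 8.13-fold higher (4.74 to 15). Cdk1 itself was 2.98-fold higher, at 336 CPM in mitotic-high against 113 CPM in mitotic-low cells, Ccna2 (cyclin A2) 3.21-fold, at 524 CPM in mitotic-high against 163 CPM in mitotic-low cells, and Bub1, a checkpoint kinase, 4.13-fold. Ccnb2, cyclin B2, did not follow Ccnb1: it stood at 327 CPM in mitotic-high against 249.4 CPM in mitotic-low cells (1.31-fold, 1.16 to 1.49), with mitotic-high cells at 10.1 to 609 CPM and mitotic-low cells at 0 to 567 CPM. The lower members were Mybl2, a MuvB-associated factor (log2 fold −1.47), and Wee1, the kinase that inhibits Cdk1 (−1.09). Wee1 kept its call under 14 of 26 alternatives and stood at −0.48 without the 4 mitotic-low cells.

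**Figure D2:**
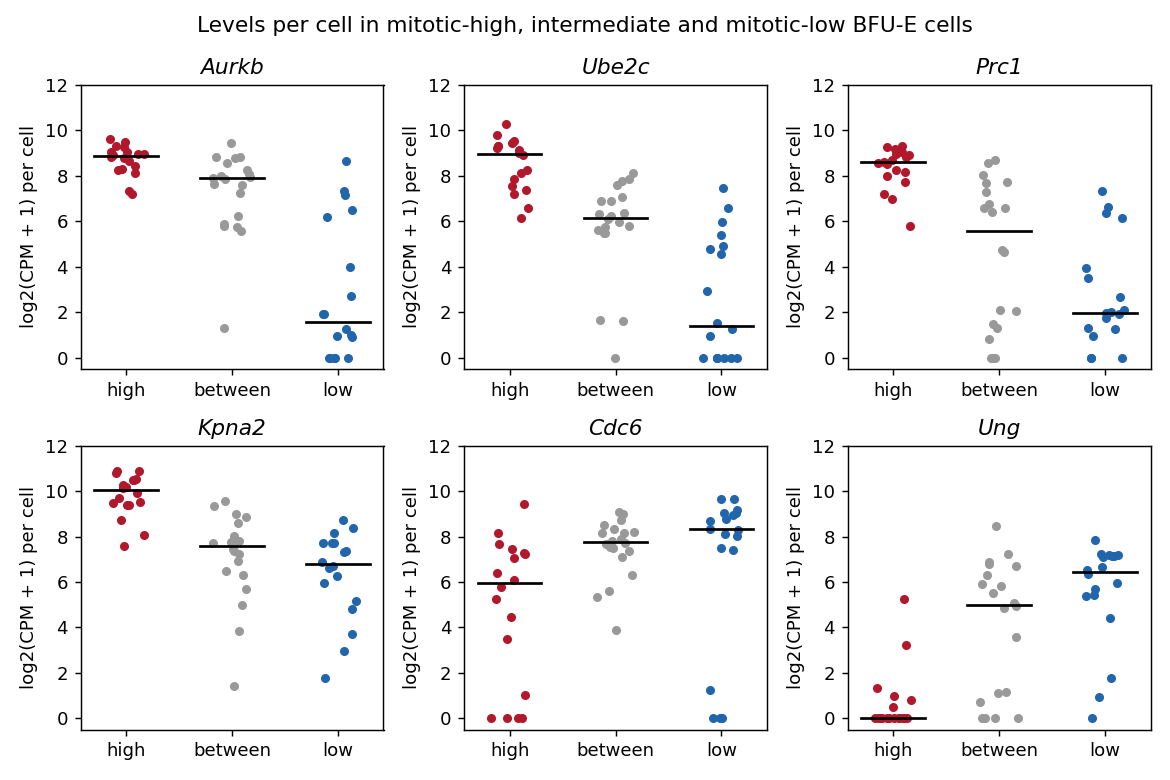
Level per cell, log2(CPM + 1), of Aurkb, Ube2c, Prc1, Kpna2, Cdc6 and Ung in mitotic-high, intermediate and mitotic-low erythroid BFU-E cells, with 1 point per cell and a bar at the median. In Ube2c 14 of 18 mitotic-high cells lie above all mitotic-low cells, in Kpna2 16 of 18, and in Ung 14 of 18 mitotic-low cells lie above all mitotic-high cells.

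Ube2c, the ubiquitin-conjugating enzyme of the anaphase-promoting complex, had the highest correlation with the score among measured genes outside it, a Spearman coefficient of 0.88 over 56 cells. It ran at 68.6, 494 and 1256 CPM in mitotic-high and at 0, 1.64 and 175 CPM in mitotic-low cells (lowest, median, highest). Its summed level, 487 CPM in mitotic-high against 28.3 CPM in mitotic-low cells, was 17.2-fold higher (13 to 23.3), and 7 mitotic-low cells held no count. Of 19 measured members of the checkpoint and anaphase-promoting complex list 7 were higher (36.8%, beside 10.4% of all measured genes) and 0 lower. Espl1, separase, was 6.60-fold higher, while Fzr1, the activator that follows Cdc20, was 3.57-fold higher with a median of 6.90 CPM in mitotic-high and 0 CPM in mitotic-low cells. Anapc4, a core subunit, stood at 153 CPM in mitotic-high against 202 CPM in mitotic-low cells (log2 fold −0.39).

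Kinetochore and centromere genes were higher for 17 of 34 measured members (50%, beside 10.4% of all measured genes) and lower for 0. Cenpf, an outer kinetochore protein, ran at 25.2, 177 and 691 CPM in mitotic-high and at 0, 1.15 and 65.4 CPM in mitotic-low cells, with 16 of 18 mitotic-high cells above all mitotic-low cells, and was 24.5-fold higher in the sums (15.1 to 42.5). Spag5 (astrin) was 10.3-fold higher and Cenpl, of the inner kinetochore, 6.18-fold higher. The member furthest the other way was Cenpw, also of the inner kinetochore, at 31.1 CPM in mitotic-high against 53.9 CPM in mitotic-low cells, a log2 fold of −0.77. The list's median log2 fold was 1.04, close to the 2-fold limit.

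Mitotic kinesins had the highest share of higher members, 11 of 13 measured (84.6%, beside 10.4% of all measured genes). They had 0 lower members and a median log2 fold of 2.04. Kif4, a chromokinesin, was 17.8-fold higher (118 CPM in mitotic-high against 6.67 CPM in mitotic-low cells), Kif18b, which shortens microtubule ends, 17.1-fold (161 CPM in mitotic-high against 9.44 CPM in mitotic-low cells), and Kif23, of the central spindle, 7.90-fold (132 CPM in mitotic-high against 16.7 CPM in mitotic-low cells). Kif11, the kinesin that separates the poles, ran at 261, 553 and 855 CPM in mitotic-high and at 0, 9.76 and 587 CPM in mitotic-low cells and was 5.92-fold higher. For Kif11 8 of 18 mitotic-high cells lay above all mitotic-low cells, so single mitotic-low cells reached the mitotic-high range.

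Spindle and centrosome genes were higher for 25 of 33 measured members and lower for 0, and cytokinesis and passenger genes for 9 of 12 and 0. The shares of higher members, 75.8% and 75%, stand beside 10.4% of all measured genes. Prc1, which bundles the microtubules of the central spindle, ran at 54.4, 385 and 634 CPM in mitotic-high and at 0, 2.91 and 159 CPM in mitotic-low cells, and its sum was 14.1-fold higher (10.5 to 19.4). Sapcd2, a spindle orientation protein, was 32.2-fold higher (13.5 to 101) and Iqgap3, a cytoskeletal scaffold, 33-fold (12.6 to 123), both from under 3 CPM in mitotic-low cells. Tpx2, the activator of Aurora A on microtubules, was 6.20-fold higher, Hmmr 9.55-fold, Nusap1 6.74-fold and Kpna2, an importin that binds spindle factors, 8.02-fold. The tubulins Tuba1c and Tubb4b were 10.7-fold and 4.03-fold higher, with 15 of 18 mitotic-high cells above all mitotic-low cells for each. In cytokinesis, Anln (anillin) was 6.21-fold and Racgap1 5.26-fold higher. Parpbp, which that list also holds but which is known as a regulator of homologous recombination, was 5.11-fold higher, and Pcnt, a centrosome scaffold, lay the other way at 183 CPM in mitotic-high against 226 CPM in mitotic-low cells (log2 fold −0.30).

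Genes of chromosome structure had a smaller share of higher members. Of 23 measured condensation and cohesion genes 5 were higher (21.7%, beside 10.4% of all measured genes) and 0 lower (median log2 fold 0.26). Top2a, the decatenating topoisomerase, ran at 1021, 1749 and 2536 CPM in mitotic-high and at 2.38, 190.3 and 2261 CPM in mitotic-low cells and was 4.27-fold higher (3.95 to 4.63). Mki67, the coat protein of mitotic chromosomes, was 3.74-fold higher and was under 10 CPM in 0 mitotic-high and 6 mitotic-low cells. Cdca5 (sororin) was 3.25-fold higher, and the condensin I subunits Ncapg and Ncaph 2.54-fold and 2.45-fold. Ncaph fell short of 2-fold without the 4 mitotic-low cells, at a log2 fold of 0.92. Of 15 nuclear envelope genes Lmna and Nup107 were higher (2.14-fold and 2.08-fold), and they kept that call under 15 and 17 of 26 alternatives. Without the 4 mitotic-low cells their log2 folds were 0.71 and 0.996, under the 2-fold limit. The share of higher nuclear envelope members, 13.3%, lies near the 10.4% of all measured genes.

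**Figure D3:**
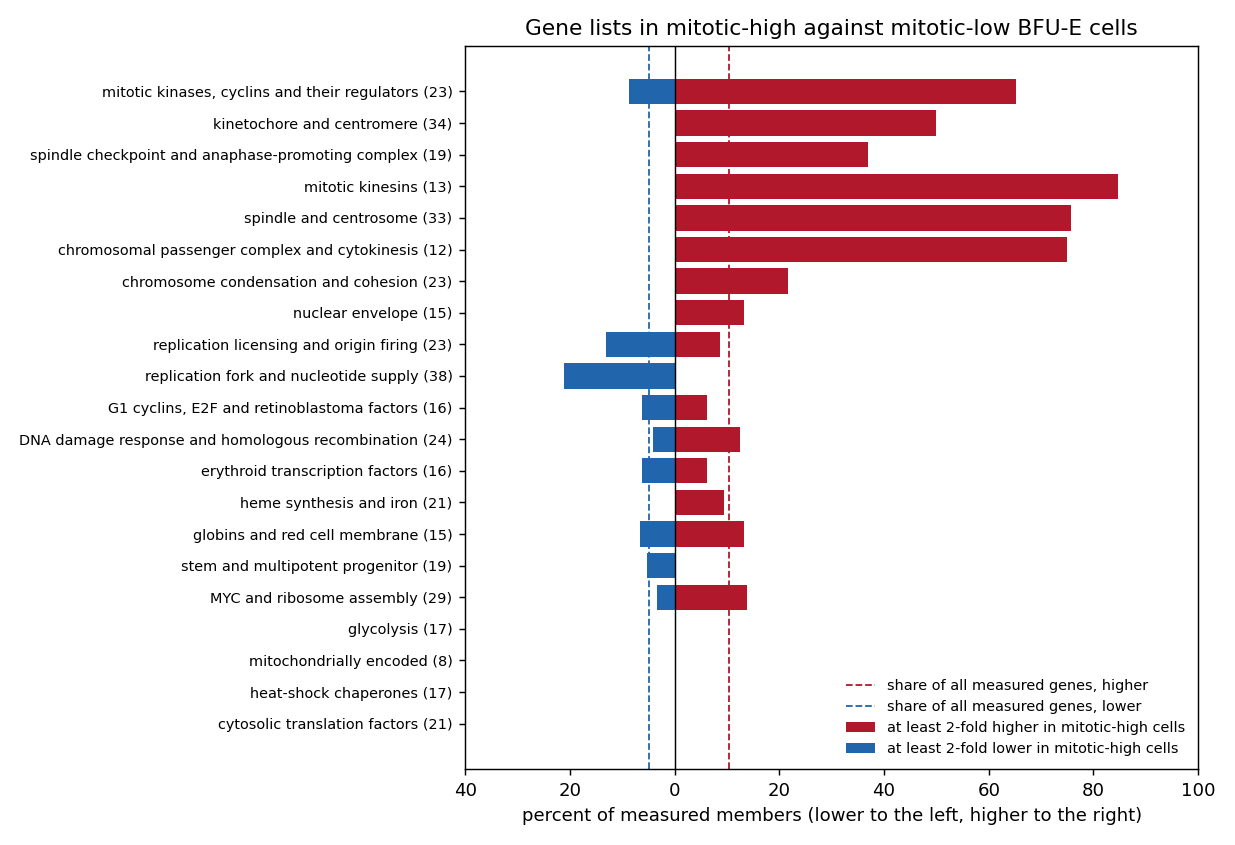
Share of measured members (percent, horizontal axis) at least 2-fold higher (right) and at least 2-fold lower (left) in mitotic-high than in mitotic-low BFU-E cells for 21 gene lists, with the number of measured members in parentheses and dashed lines at the shares of all measured genes, 10.4% higher and 4.99% lower. The 6 mitotic lists at the top reach 7 of 19 to 11 of 13 members, and the fork list has 8 of 38 members lower.

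Outside the lists, the genes furthest apart with at least 20 CPM were led by Arhgap19. It ran at 1.80, 155 and 373 CPM in mitotic-high and at 0, 0 and 26.5 CPM in mitotic-low cells, and was 84.5-fold higher in the sums (32.7 to 312), at 188 CPM in mitotic-high against 2.22 CPM in mitotic-low cells. In Arhgap19 17 of 18 mitotic-high cells lay above all mitotic-low cells, and the intermediate cells stood at 99.5 CPM. Prr11 and Fam122b had no thinned count in mitotic-low cells and were each at least 13-fold higher against a floor of 3 counts per group, at 21.7 CPM in mitotic-high cells. Pif1, a DNA helicase, was 12.6-fold higher. Arhgap19 and Pif1 kept their calls under all 26 alternatives, Prr11 under 24 and Fam122b under 20.

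Genes of DNA replication had more lower than higher members. Of 61 measured members of the licensing and fork lists (62 have a row), 11 were at least 2-fold lower and 2 higher in mitotic-high cells. Their median log2 fold was −0.35 beside 0.14 over all measured genes. The alternatives gave 4 (28 against 28 cells) to 17 lower members. The licensing list had 3 lower and 2 higher members of 23, and the fork and nucleotide list 8 lower and 0 higher of 38. The shares of lower members, 13.04% in licensing and 21.1% in the fork list, stand beside 4.99% of all measured genes. The share of higher members in licensing, 8.70%, lies near the 10.4% of all measured genes, and the 0% of the fork list lies under it.

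Cdt1, which loads the replicative helicase at origins, ran at 3.42, 67.6 and 229.7 CPM in mitotic-high and at 8.75, 290.2 and 971 CPM in mitotic-low cells. Its summed level was 3.32-fold lower in mitotic-high cells (2.80 to 3.94), and 10 of 18 mitotic-low cells lay above all mitotic-high cells. Cdc6, its partner in licensing, was 2.97-fold lower (2.53 to 3.50), and at least 100 CPM of it were present in 7 of 18 mitotic-high, 16 of 20 intermediate and 14 of 18 mitotic-low cells. Mcm4, a helicase subunit, was 2.07-fold lower, at 433 CPM in mitotic-high against 895 CPM in mitotic-low cells, and Mcm2 stood at 632 CPM in mitotic-high against 1018 CPM in mitotic-low cells, a log2 fold of −0.69. The higher members were Dbf4, which activates the Cdc7 kinase at origins (7.70-fold, 42.8 CPM in mitotic-high against 5.56 CPM in mitotic-low cells), and Orc5, an origin recognition subunit (3.19-fold, 158 CPM in mitotic-high against 49.4 CPM in mitotic-low cells). Dbf4 stood at 0.37 when only cells with at least 7000 genes were ranked.

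Ung, uracil-DNA glycosylase, was the list gene furthest lower. It ran at 0, 0 and 37.4 CPM in mitotic-high and at 0, 86 and 231 CPM in mitotic-low cells, with a count in 2 of 18 thinned mitotic-high and 14 of 18 thinned mitotic-low cells. Its sum was 17.8-fold lower in mitotic-high cells (9.13 to 39.6), at 5.00 CPM in mitotic-high, 60 CPM in intermediate and 88.9 CPM in mitotic-low cells. Clspn (claspin), which links stalled forks to Chek1, was 3.86-fold lower, Chek1 itself 2.69-fold and Chaf1b, a histone chaperone subunit, 2.68-fold. Pcna, the sliding clamp, and Rrm2, a ribonucleotide reductase subunit, had log2 folds of −0.51 and −0.69, and Rrm2 was highest in the intermediate cells, at 236 CPM in mitotic-high, 663 CPM in intermediate and 381 CPM in mitotic-low cells. Ccne2, cyclin E2, was 4.10-fold lower, at 21.7 CPM in mitotic-high, 149 CPM in intermediate and 88.9 CPM in mitotic-low cells. Ccne1 had a count in too few cells to be measured, and E2f4, an E2F factor, was the 1 higher member among 16 G1 genes, at 3.75-fold. The shares of the G1 list, 6.25% higher and 6.25% lower, lie near the 10.4% and 4.99% of all measured genes.

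The mitotic-high cells were not alike in replication transcripts. Their summed level over both replication lists ran from 6613 to 21055 CPM (median 13668), from 12601 to 28365 CPM (median 18881) in intermediate and from 4165 to 28669 CPM (median 21524) in mitotic-low cells. Of the mitotic-high cells 9 were under 13000 CPM, the highest of them at 12998 CPM, and the next mitotic-high cell stood at 14339 CPM. The limit was no part of the rule that chose the cells and divides a range, so its sides are not separated classes. The 9 cells under it had mitotic sums of at least 28947 CPM, while the other 9 mitotic-high cells lay between 24762 and 31556 CPM. Of the mitotic-low cells 10 of 18 lay above all mitotic-high cells, and 2 fell under the lowest mitotic-high cell. Those 2 cells had 114288 and 419482 counts and 4517 and 5269 genes, the fewest of the mitotic-low cells. The other mitotic-low cells held at least 10312 CPM of replication transcripts. The part of library size in the 2 low sums was not tested. The score and the replication sum had a Spearman correlation of −0.50 over 56 cells and of −0.61 over the 52 cells with at least 200 CPM of gate genes. Both sums come from the same libraries and share their total.

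**Figure D4:**
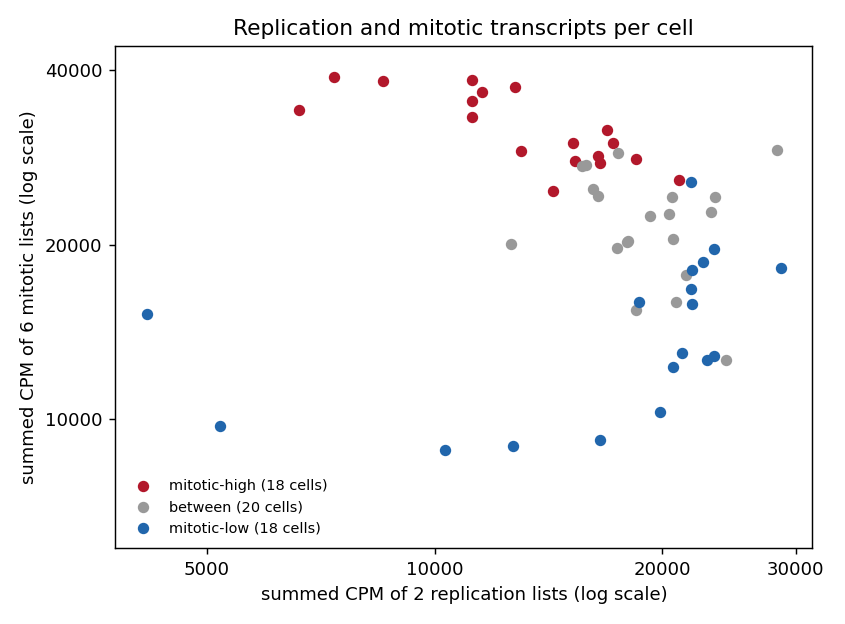
Summed CPM of the 6 mitotic lists (vertical, log scale) against summed CPM of the 2 replication lists (horizontal, log scale) in each of 56 erythroid BFU-E cells, with 1 point per cell and colours for the 3 groups. Mitotic-high cells lie at the upper left to upper centre (24762 to 38948 CPM of mitotic transcripts), and most mitotic-low cells at the lower right. The 2 at the lower left under 6613 CPM of replication transcripts are the mitotic-low cells with the fewest counts.

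Counts for the erythroid programme and for progenitor genes are given here, with their shares at the end of the paragraph. Of 16 erythroid transcription factors outside the gate 1 was higher (Foxo3, 2.14-fold) and 1 lower (Gfi1b, 2.12-fold), and neither kept its call under all alternatives. Gate genes were part of the choice of cells. Klf1, the erythroid Krüppel-like factor, was 2.16-fold higher, at 216 CPM in mitotic-high against 100 CPM in mitotic-low cells, and 0.83 on the log2 scale without the 4 mitotic-low cells, and Gata1, Epor and Mfsd2b had log2 folds of 0.25, 0.46 and 0.68. Of 21 heme and iron genes Iscu and Glrx5 were higher (3.73-fold and 2.69-fold, each under 25 CPM) and 0 lower, and Glrx5 kept its call under 15 of 26 alternatives and Iscu under 17. Glrx5 stood at a log2 fold of 0.99 without the 4 mitotic-low cells. Of 15 globin and membrane genes Sptb (spectrin) and Rhag were higher, 2.96-fold and 2.52-fold, and Tspo2 was 2.55-fold lower. Sptb kept its call under all 26 alternatives, Rhag under 21 and Tspo2 under 23. Rhag had a median of 2.57 CPM in mitotic-high and 0 CPM in mitotic-low cells. Of 19 measured progenitor genes Ptprc (CD45) was 2.13-fold lower and 0 were higher (Ptprc kept its call under 19 of 26 alternatives), while Myb stood at 204 CPM in mitotic-high against 383 CPM in mitotic-low cells (log2 fold −0.91) and Cdk6 at 1013 CPM in mitotic-high against 1168 CPM in mitotic-low cells. The shares higher and lower were 6.25% and 6.25% for transcription factors and 9.52% and 0% for heme and iron genes. They were 13.3% and 6.67% for globin and membrane genes and 0% and 5.26% for progenitor genes. Apart from the shares of 0%, which lie under them, these lie near the 10.4% and 4.99% of all measured genes.

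In the DNA damage list H2afx (histone H2AX), Rad51b and Fancd2 were 5.84-fold, 6-fold and 2.28-fold higher and Chek1 lower, of 24 measured. H2afx ran at 30.3, 109.8 and 574 CPM in mitotic-high and at 0, 27.4 and 66.2 CPM in mitotic-low cells, and 13 of 18 mitotic-high cells lay above all mitotic-low cells. Among 29 MYC and ribosome assembly genes 4 were higher (Fbl, Max, Gar1 and Polr1a, at log2 folds of 1.67, 1.37, 1.13 and 1.06, Polr1a at 0.77 without the 4 mitotic-low cells) and 1 lower, Mxd4, a MAX partner that opposes MYC (4.26-fold, 10.6 CPM in mitotic-high against 45 CPM in mitotic-low cells). The shares of higher members in the DNA damage and MYC lists, 12.5% and 13.8%, lie near the 10.4% of all measured genes. Myc itself stood at 666 CPM in mitotic-high against 518 CPM in mitotic-low cells, a log2 fold of 0.36. In glycolysis (17 measured), heat-shock chaperones (17), cytosolic translation factors (21) and mitochondrially encoded genes (8), no member differed 2-fold either way, and median log2 folds were 0.01, 0.08, −0.07 and −0.30. Of the 17 inhibitors of cyclin-dependent kinases and antiproliferative genes, Cdkn2d and Ccng1 were measured and neither differed 2-fold, and of 15 immediate early genes 0 were measured. Xist was 2.16-fold lower and the Y-linked Ddx3y and Eif2s3y 4.21-fold and 3.50-fold higher. Xist kept its call under 17, Ddx3y under 20 and Eif2s3y under 21 of 26 alternatives. More than 100 CPM of Xist were present in 7 of 18 mitotic-high, 4 of 20 intermediate and 11 of 18 mitotic-low cells. The share was thus smallest in the intermediate cells and did not run along the score. The sex of the embryos is not named for these cells, and the part of sex in other genes was not tested.

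The lower genes outside the lists given here are those among the 12 lowest by log2 fold, with predicted genes left out. They had a thinned count in 1 to 6 of 18 mitotic-high and 9 to 11 of 18 mitotic-low cells. Rbm33 was apart, with 12 and 11. A measured gene needed a count in at least 9 cells of its higher group, so the 9 was set by that minimum. Dennd3 had a count in 1 of 18 mitotic-high and 9 of 18 mitotic-low thinned cells and stood at 0.556 CPM in mitotic-high against 36.7 CPM in mitotic-low cells, and Zbtb48, a telomere-binding zinc finger protein, stood at 2.22 CPM in mitotic-high against 56.7 CPM in mitotic-low cells. Fbxl20, Coq8a, Muc6, Tbc1d1, Rbm33, Tor3a, Fbxo11 and Foxred2 were 6.31-fold to 16.4-fold lower in mitotic-high cells, with medians of 0 to 11.1 CPM in mitotic-high and of 4.73 to 32.9 CPM in mitotic-low cells. Zbtb48 kept its call under 16 of 26 alternatives and Fbxo11 under all 26. The predicted gene Gm10800 stood at 2350 CPM in mitotic-high against 17291 CPM in mitotic-low cells, a log2 fold of −2.88. It stood at −1.15 without the 1 cell with 31.2% of its counts in such genes and at −0.71 without the 4 mitotic-low cells.

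The same ranking was applied to cells that the choice had not used. Among 86 CFU-E cells that passed the same filters, the 18 highest against the 18 lowest gave 405 genes higher (6.52%) and 355 lower (5.71%) of 6212 measured, and among the 36 BFU-E plate cells under the erythroid gate 447 higher (7.06%) and 317 lower (5.01%) of 6329. The plates were prepared apart, and no test of a difference between them is possible with 1 sample each. The 18 against 18 cells are the ends of 86 CFU-E cells but all of the 36 cells under the gate. Sizes of folds in the sets therefore rest on unlike choices of cells. Of the 6 mitotic lists, 42 of 134 measured members were higher and 0 lower in CFU-E cells, and 71 of 128 higher and 1 lower under the gate, with median log2 folds of 0.68 and 1.12 beside 1.35 in erythroid BFU-E cells. Of the score genes, which chose the cells in each set, Plk1 stood at 618 CPM in high against 120 CPM in low CFU-E cells. Its log2 fold there was 2.35, beside 4.95 in erythroid BFU-E cells.

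Among the named genes, Kpna2 had log2 folds of 2.99 in erythroid BFU-E, 2.79 in CFU-E and 1.76 in cells under the gate, and Ube2c 4.06, 2.50 and 4.34. Pif1, the helicase outside the lists, had 3.52, 3.37 and 3.53. Arhgap19 stood at 158 CPM in high against 133 CPM in low CFU-E cells, a log2 fold of 0.25, and at 83.3 CPM in high against 0 CPM in low cells under the gate. Ccna2 stood at 975 CPM in high against 1145 CPM in low CFU-E cells (log2 fold −0.23). Ung was lower in CFU-E cells as well, at 21.1 CPM in high against 134 CPM in low cells (log2 fold −2.61), but stood at 36.1 CPM in high against 40 CPM in low cells under the gate. Cdc6 had log2 folds of −1.56, −0.69 and −2.10 in the 3 sets, and Cdt1 of −1.72, −0.14 and −0.64.

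**Figure D5:**
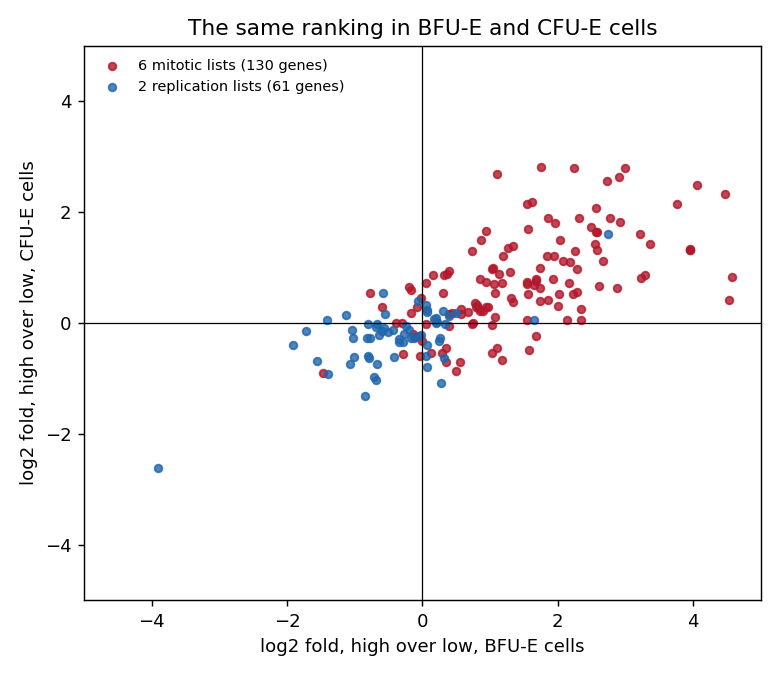
Log2 fold of high over low cells in CFU-E cells (vertical) against that in erythroid BFU-E cells (horizontal) for genes measured in both, with 1 point per gene, 130 genes of the 6 mitotic lists and 61 of the 2 replication lists. Most mitotic genes lie to the right of 0 on the BFU-E axis and spread lower on the CFU-E axis, and Ung is the replication gene furthest at the lower left, at −3.91 and −2.61.

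Of the 649 genes higher in mitotic-high BFU-E cells, 493 were measured in CFU-E cells, where 90 were higher as well and 19 lower. The shared genes are 13.9% of the BFU-E calls and 22.2% of the CFU-E calls. Under the gate 469 were measured, 121 higher as well and 20 lower, and the shared genes are 18.6% of the BFU-E calls and 27.1% of the other list. Of the higher genes measured in each set 18.3% and 25.8% were higher there too, beside 6.52% and 7.06% of all measured genes. Of the 310 lower genes, 205 were measured in CFU-E cells, where 20 were lower as well and 11 higher, and the shared genes are 6.45% of the BFU-E and 5.63% of the CFU-E calls. Under the gate 239 were measured, 20 lower as well and 9 higher (6.45% and 6.31% of the lists). Of the lower genes measured in each set 9.76% and 8.37% were lower there too, beside 5.71% and 5.01% of all measured genes.

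The motifs marked in the printed promoters were counted in 1 RefSeq window per gene on both strands. TTTGAA lay in 18.1% and CCAAT in 37.9% of all 27025 windows, and in 40 windows the motifs overlapped each other. Of the 108 measured members of the mitotic lists with a window, 50.9% held TTTGAA and 66.7% CCAAT, against 13.1% and 39.5% of the 4882 windows of all measured genes. Among the mitotic members at least 2-fold higher in mitotic-high cells the shares were 62.3% and 73.9% (69 windows), and among those under 2-fold 31.6% and 55.3% (38 windows). TTTGAA within 50 bases of the start was in 55.1% and 23.7% of these windows, and in 4.92% of all windows. Genes can have several starts, and the window's start lay within 100 bases of the GENCODE gene start for 75.5% of the measured genes. Among genes with such a window, 54.8% of 84 mitotic members and 13.3% of 3686 measured genes held TTTGAA.

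Over all called genes, 24.2% of 509 higher genes and 8.56% of 222 lower genes held TTTGAA, and 44.6% and 39.6% held CCAAT. The 49 replication genes with a window held TTTGAA in 14.3% and CCAAT in 57.1%. Of the 5 score genes 3 held TTTGAA and 5 held CCAAT, and Ccnb1 was among those without TTTGAA in the window. A match is a run of letters in these windows and was not tested as a binding site.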

How the data were processed

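The authors deposited raw counts, that is, the number of reads assigned to a gene in a cell, without normalization. Per the submitters' processing notes, STAR 2.4 and featureCounts (version not given in the sources used here) were used with GRCm38. The treatment of reads with several matches and of strand is not given in the sources used here, so near-identical copies, among them the predicted genes and tubulins, and antisense partners are uncertain. Of 192 cells, 191 columns matched a cell by name, and 1 further column was left unused.

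The counts of a cell were drawn down to 100000 without replacement (seed 1) and summed per group to 1800000 counts, so that cells weigh equally. Group levels are CPM of the sums, log2 folds are log2((CPM + 1)/(CPM + 1)) of mitotic-high over mitotic-low cells, and folds are CPM ratios with exact conditional binomial 95% intervals. Intervals and the floor of 3 counts per group (1.67 CPM) cover counting error only, since PCR copies are not independent molecules. Levels per cell are CPM of the cell's own counts. Wells received single sorted cells, and doublets were not called.

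The members and the 34 gene lists (645 symbols, 637 with a row) were chosen with earlier results of these data known. Named genes were the score and gate genes, the 12 highest and 12 lowest by log2 fold with at least 20 CPM in the higher group outside pseudogenes and predicted genes, from each list the 3 members furthest from equal and the 1 furthest in the opposite direction, a core panel, the 10 genes with the highest Spearman correlation with the score, and for each other cell type its 3 markers with the highest level. Predicted genes, and Wee1, Mcm4, Gar1, Polr1a, Ncapg, Ncaph and Fancd2 as members of short counts, were named after their values were seen. Cells are not replicates, so no p-value was computed. The thinning and fold calculation was run on simulated counts with known folds. Simulated cells came from a shared mean profile, without variation between cells beyond counting error and without picking cells by score. The simulation therefore does not cover the effect of either on the calls. There were 22 alternative settings, on summing, thinning, scaling, the pseudocount, filters, group size, the gate and the score, and 4 more chosen after seeing the data, which leave out unusual cells or genes. Python 3.11.15, numpy 2.4.6, pandas 2.3.3 and SciPy 1.17.1 were used.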

Additional observations from a re-analysis of the deposited data

How the results depend on the processing

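Of the 26 alternatives, those not listed here kept both counts of called genes within 1.5 times of 649 higher and 310 lower. Lower genes numbered 469 when raw counts were summed and 473 with the mean CPM over cells. Without a minimum of cells with a count, 1154 genes were higher and 1282 lower, which turns the share of higher among called genes to 47.4%, against 67.7%. With 12 against 12 cells 1017 were higher and 506 lower, and with 28 against 28 cells 315 and 136. Mpo changed sign with 12 against 12 cells (1.88), without Plk1 in the score (0.18), with the highest cell of each group left out (1.15) and without the 4 mitotic-low cells (2.03). Ddx3y changed sign without Cenpe in the score (−0.15) and with at least 7000 genes per cell (−0.37). The causes of these changes were not tested. Of 2756 log2 folds of 106 named genes under the alternatives, 2294 moved by less than the error of the reported value. The sign changed in 26 of the 2756, in 10 genes, and the 6 given above are those of genes past 2-fold among the 106. The predicted gene Gm11168, lower at a log2 fold of −2.10, also changed sign, to 0.17 without the 4 mitotic-low cells. Of 98 named genes that were called, 46 kept their call under every alternative. Without the 4 mitotic-low cells 646 genes were higher and 330 lower, of which 511 and 194 were among the reported calls. With at least 7000 genes per cell 454 were higher and 291 lower, of which 307 and 140 were among the reported 649 and 310. Similar totals can therefore hold different genes. No paired analysis was possible because the results come from no test and the shared numbers of BFU-E and CFU-E cells are well labels. With 1 sample there is no estimate of the spread between animals, and at 100000 counts per cell a gene without a count in a group may be present at up to 1.67 CPM.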
